A study of Mus musculus with 6 samples.

Results

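Drosha, Dgcr8, Xpo5, Dicer1, Tarbp2, Ago1, Ago2, Ago3, Ago4 and Dis3l2 encode the proteins that make mouse microRNAs (miRNAs), carry them to their targets and remove some of their precursors. The genes were chosen by symbol alone, with no measured value, and the 10 symbols were found among 22127 genes listed in the mRNA data. All 10 held at least 10 reads in both mRNA libraries together and so passed the filter on low counts.

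A miRNA gene is transcribed into a long hairpin RNA, which the Microprocessor (the nuclease Drosha with its RNA-binding partner Dgcr8) cuts in the nucleus. Exportin-5 (Xpo5) carries the freed precursor to the cytoplasm, where Dicer1 with its partner Tarbp2 cuts it to a short duplex, and 1 strand is loaded into an Argonaute protein that silences matching mRNAs. Dis3l2 is a 3′ exonuclease that degrades precursors of the let-7 family once they carry a uridine tail. In mice, loss of Drosha or Dicer1 from the male germ line is known to disturb sperm formation.

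The cells were GC-2 spd(ts), a line derived from mouse spermatocytes that were immortalised with a temperature-sensitive p53 and a viral large T antigen. Per the labels both groups were grown at 37 °C. Cultures in both groups were first kept for 12 h without serum. The BPA culture then received 120 µM bisphenol A (BPA), a plasticiser with weak oestrogen-like activity, for 48 h in medium with 10% serum. The control culture received the same medium with 0.1% dimethyl sulfoxide, the solvent of BPA, and 0 µM BPA. RNA of each culture was split into an mRNA library, a small RNA library and a library of circular RNA (circRNA) from which ribosomal RNA was depleted and linear RNA digested. The 6 libraries had no replicates, with 1 for each group, so no difference here has a replicate check and no test of treatment was made.

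The mRNA libraries held 33071378 reads with BPA and 32312872 in the control. Of 18 genes that mark spermatocytes and meiotic germ cells, 3 were listed and none passed the filter. These were Sycp3 with 0 reads with BPA and 6 in the control, Meiob with 0 with BPA and 3 in the control, and Ddx4 with 9 with BPA and 0 in the control, so the spermatocyte label had little support in these defining genes. Of 10 fibroblast and peritubular markers, 7 passed the filter, with 6 lower and 1 higher with BPA. Col1a1, Col1a2, Vim and Acta2 carried most of their reads. Myh11 had 9 reads with BPA and 0 in the control, Dcn 8 with BPA and 0 in the control, and Cnn1 25 with BPA and 21 in the control. The list summed to 3101 CPM (reads scaled to the library total) with BPA against 5726 in the control. The part of this difference in the values that follow was not tested. In bulk RNA, fewer cells of a type and less RNA per cell cannot be told apart.

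The sequences that link these genes to each other are shown first. Members of the let-7 family share bases 2 to 8, the seed, which is in capitals here, and are the main known products whose precursors Dis3l2 degrades. miR-103-3p and miR-107-3p share another seed and are known to repress Dicer1. miR-451a is matured by Ago2 without Dicer1, and miR-1306-5p comes from a hairpin inside the Dgcr8 mRNA that the Microprocessor itself can cut. Sequences are RefSeq's on GRCm38.p6, 5′ to 3′.
let-7f-5p: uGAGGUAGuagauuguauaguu
let-7i-5p: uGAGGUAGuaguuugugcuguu
miR-103-3p: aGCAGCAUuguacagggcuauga
miR-107-3p: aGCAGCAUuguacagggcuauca
miR-451a: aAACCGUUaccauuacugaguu
miR-1306-5p: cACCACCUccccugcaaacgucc

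Matches to those seeds were sought in the longest annotated 3′ UTR of each gene, on the transcript's strand. The letters were CTACCTC for let-7 and ATGCTGC for miR-103-3p and miR-107-3p, and the match is in capitals in the windows of 30 bases printed here (GRCm38). Tarbp2 held both matches in a 3′ UTR of 334 bases, Dicer1 held 1 match to miR-103-3p, and Ago2 held 3 matches to let-7.
Tarbp2, let-7, chr15:102523432-102523461, + strand: gaggtgccatctCTACCTCtgacacagcct
Tarbp2, miR-103-3p, chr15:102523572-102523601, + strand: agtcctgaataaATGCTGCtctttggcttc
Dicer1, miR-103-3p, chr12:104690159-104690188, − strand: atgcttcatgtaATGCTGCacttaggttca
Ago2, let-7, chr15:73097972-73098001, − strand: tacaatgtggatCTACCTCagttaaacagt

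Such matches are common in long 3′ UTRs, so each was read beside genes with a 3′ UTR within 10% of the same length. For Tarbp2, 2.47% of 850 such genes held a let-7 match and 3.53% held a miR-103-3p match. For Dicer1, with a 3′ UTR of 3851 bases, 27.6% of 834 genes held a miR-103-3p match. Dicer1 had no let-7 match in its 3′ UTR and 4 in the transcript before it. For Ago2, with 11064 bases, 48.6% of 35 genes held a let-7 match, and 60% held a miR-103-3p match, of which Ago2 had 2. Ago3 had 1 match of each kind, where 52.6% of 19 genes held a let-7 match and 78.9% a miR-103-3p match. Ago1, Ago4 and Dgcr8 had 1 match to miR-103-3p each. Such a match was held by 28.4% of 584 genes for Ago1, 28.7% of 883 for Ago4 and 12.4% of 1435 for Dgcr8. No match to either seed was found in the 3′ UTRs of Drosha, Xpo5 and Dis3l2. Matches before the 3′ UTR, those of Dicer1 included, were not set beside other genes. To let-7 there were also 2 in Xpo5 and 1 in Ago3. To miR-103-3p there was 1 each in Drosha, Dicer1, Tarbp2, Ago1, Ago4 and Dis3l2. A match describes letters only, not a site in use.

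Which of the genes differed between BPA-treated and vehicle-treated cells is the comparison the design sets up. In the BPA library, the mRNAs of Drosha and Tarbp2 were lower, those of Dis3l2 and Ago4 were higher, and that of Xpo5 was slightly lower, under the authors' scaling and by library total. Those of Dicer1 and Ago2 differed by no more than counting error under both. The calls for Ago1, Dgcr8 and Ago3 depended on the scaling. 1 gene, Ago4, was at least 2-fold higher with BPA, where 6.88% of all 16870 genes passing the filter were. No gene of the 10 was at least 2-fold lower, against 4.61% of all genes. Their median log2 ratio was -0.04, with 4 genes above 0 and 6 below, beside 0.02 over all genes. Scaled by the library total the median was 0.039, with 6 above and 4 below, beside 0.09 over all genes.

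**Figure D1:**
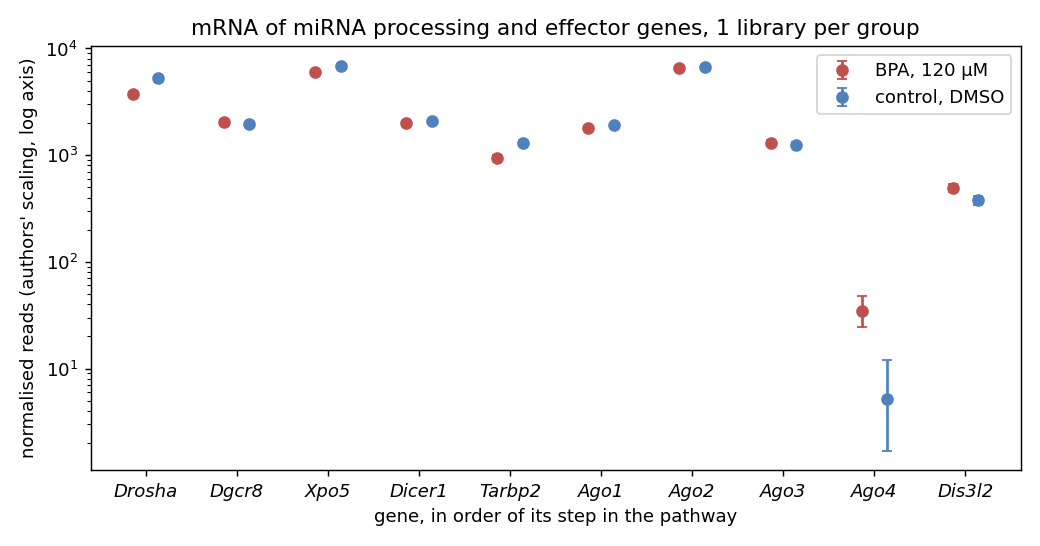
Normalised mRNA reads of the 10 genes (log axis) in the BPA library (red) and the control library (blue), 1 library each, with 95% Poisson counting intervals as bars, most of them smaller than the points. Ago4 lies far below the other 9 genes in both libraries.

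The Microprocessor genes parted from each other. Drosha (ENSMUSG00000022191, chr15:12824815-12935291, + strand, GENCODE M21 on GRCm38) had 3887 reads with BPA against 5063 in the control. After the authors' scaling these were 3740 with BPA and 5263 in the control. The log2 ratio of BPA over control was -0.49, with a 95% counting interval of -0.55 to -0.43, and the level with BPA was 0.711 times that in the control. Among 9974 genes with at least 500 reads, 6.17% had a lower ratio than Drosha.

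Dgcr8 (ENSMUSG00000022718, chr16:18253948-18289246, − strand), the subunit that recognises the hairpin, had 2144 reads with BPA and 1892 in the control. Its log2 ratio was 0.07, with an interval of -0.02 to 0.16 that includes equality. By library total it was 0.15, with an interval of 0.06 to 0.24. Drosha is known to cut hairpins in the Dgcr8 mRNA, and the reads of both genes in one library give a ratio that needs no scaling. There were 1.81 reads of Drosha for each read of Dgcr8 with BPA against 2.68 in the control, a log2 change of -0.56 (interval -0.67 to -0.45). The Dgcr8 count is less certain than that of Drosha, because 8.15% of its 50-base windows also occur in transcripts of other genes, among them Gm49776 on the same strand. Trmt2a, on the opposite strand, shares 825 bases of exon with Dgcr8 and held 2871 reads with BPA and 2659 in the control. The kit keeps the strand per the labels, but no source used here gives the setting used in counting.

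Xpo5 (ENSMUSG00000067150, chr17:46202782-46243598, + strand), the export receptor, had 6202 reads with BPA and 6540 in the control. The log2 ratio of -0.19 (interval -0.24 to -0.14) was small. It lay inside the middle range of all genes passing the filter, whose quartiles were -0.24 and 0.30. Among the genes with at least 500 reads, 24.7% had a lower ratio. There Xpo5, at -0.188, lay just below the lower quartile of -0.186. No 50-base window of Xpo5 occurs in a transcript of another gene, so its count rests on unshared sequence.

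Dicer1 and Tarbp2, partners in the cytoplasm, also parted: the interval of Dicer1 included equality and Tarbp2 was lower. Dicer1 (ENSMUSG00000041415, chr12:104687742-104751952, − strand) had 2102 reads with BPA and 2008 in the control. After scaling this was a log2 ratio of -0.05, with an interval of -0.13 to 0.04, and of 0.03 when scaled by the library total. Tarbp2 (ENSMUSG00000023051, chr15:102518192-102523676, + strand), which steadies Dicer1 and helps it choose where to cut, had 981 reads with BPA against 1252 in the control. Its log2 ratio was -0.46 (interval -0.59 to -0.34), a level with BPA of 0.725 times that in the control. Among the genes with at least 500 reads, 6.87% had a lower ratio.

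In terms of reads within a library, there were 2.14 of Dicer1 for each of Tarbp2 with BPA, against 1.60 in the control, a log2 change of 0.42 (interval 0.27 to 0.57). Tarbp2 has processed copies, and 49.1% of its 50-base windows also occur in Gm18561 or Gm18584. Gm18561 held 7 reads with BPA and 2 in the control, and Gm18584 held 51 with BPA and 44 in the control. How the authors' counting divided reads among these copies is not given, and the Tarbp2 value is uncertain to that extent.

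**Figure D2:**
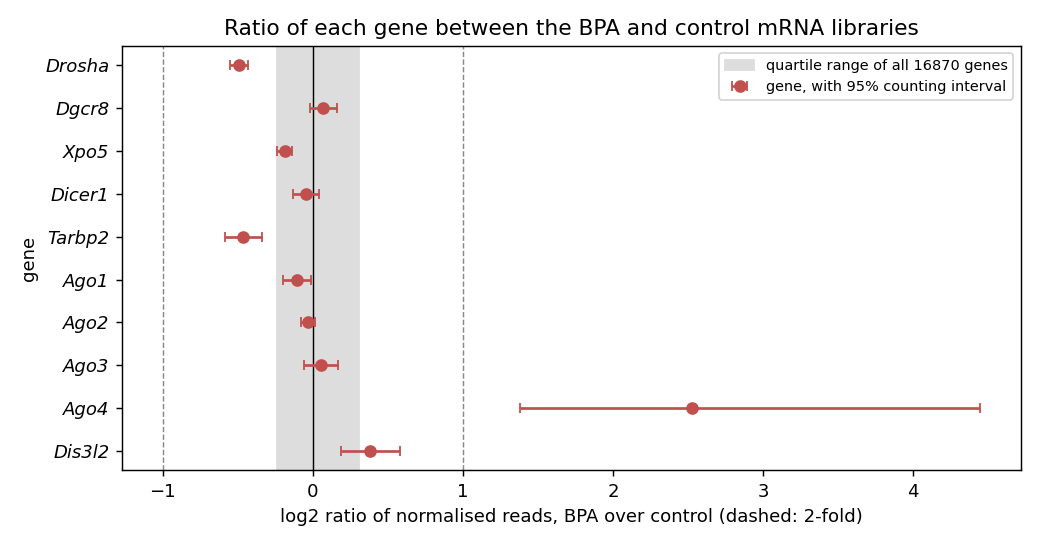
Log2 ratio of normalised reads, BPA over control, for each gene, with its 95% counting interval as a bar, against the middle range of all 16870 genes between their quartiles (grey band, -0.24 to 0.30). Drosha and Tarbp2 lie left of the band, Dis3l2 and Ago4 right of it, and the other 6 genes inside it.

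Among the Argonautes, the 3 abundant genes were nearly level and the rare one was higher with BPA. Ago2 (ENSMUSG00000036698, chr15:73095844-73184935, − strand), which can cut a fully matched target, had 6772 reads with BPA and 6408 in the control. Its log2 ratio was -0.03 (interval -0.08 to 0.02), or 0.046 when scaled by the library total. It shares 219 bases of exon with Chrac1 on the opposite strand, which held 956 reads with BPA and 683 in the control. Ago1 (ENSMUSG00000041530, chr4:126435012-126468583, − strand), which silences mainly through partner proteins, had 1861 reads with BPA and 1851 in the control. Its log2 ratio was -0.10 (interval -0.20 to -0.01), or -0.026 (interval -0.12 to 0.07) by library total.

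Ago3 (ENSMUSG00000028842, chr4:126331704-126429556, − strand), a close relative of Ago1, had 1360 reads with BPA and 1210 in the control, a log2 ratio of 0.06 (interval -0.06 to 0.17), or 0.14 (interval 0.02 to 0.25) by library total. The ratios among these genes were close in both libraries. There were 3.64 reads of Ago2 for each of Ago1 with BPA against 3.46 in the control, and 4.98 of Ago2 for each of Ago3 with BPA against 5.30 in the control. Both intervals of the log2 change included 0. Ago1, Ago2 and Ago3 share sequence with other transcripts over 1.74%, 2.26% and 0.778% of their 50-base windows.

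Ago4 (ENSMUSG00000042500, chr4:126489541-126533472, − strand), known in mice for a role in male germ cells entering meiosis, had 36 reads with BPA and 5 in the control. The log2 ratio was 2.52 with an interval of 1.38 to 4.44, the widest of the 10. It is the only one of the 10 with fewer than 50 reads in both libraries together. At such depth a 2-fold difference is frequent: 21.6% of the 3340 genes with 10 to 49 reads were at least 2-fold higher with BPA. Ago4 had 34.6 normalised reads with BPA and 5.20 in the control. With 1 normalised read added to each, as in the log2 ratio, the value with BPA was 5.75 times that in the control. At such counts the added read lowers the ratio, and the interval is of reads with none added. Of all genes passing the filter, at any depth, 98.5% had a lower ratio than Ago4. How common so large a ratio is among genes with 10 to 49 reads was not tested. None of the 50-base windows of Ago4 occurs in a transcript of another gene, those of the abundant Argonautes included.

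Dis3l2 (ENSMUSG00000053333, chr1:86703808-87050095, + strand) had 511 reads with BPA against 363 in the control. The log2 ratio was 0.38 (interval 0.18 to 0.58), a level 1.30 times that in the control. A lower ratio was found for 79.3% of all genes passing the filter and for 88.6% of those with at least 500 reads. Within each library there were 0.131 reads of Dis3l2 for each of Drosha with BPA, against 0.0717 in the control. That was a log2 change of 0.87 (interval 0.67 to 1.08). Apart from Ago4, Dis3l2 had the highest and Drosha the lowest ratio of the genes described, so this change restates their own ratios. No exon of Dis3l2 is shared with another gene.

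Under the authors' scaling, counting intervals stood clear of equality for 6 of the 10 genes, 2 above it (Ago4, Dis3l2) and 4 below it (Drosha, Xpo5, Tarbp2, Ago1). At this depth that is ordinary, since 28.2% of all genes lay above and 26.5% below, and 70% of genes with at least 500 reads stood clear in either direction. The intervals and floors cover counting error only, because reads without molecular identifiers are not independent molecules and cultures also vary. In the authors' deposited table the p-values of these genes ran from 0.0803 for Drosha to 0.841 for Ago2. In the authors' deposited table the adjusted p-values ran from 0.961 to 0.992.

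Levels of different genes were compared as RPKM, reads per kilobase of exon scaled to the library total. Xpo5 was highest, at an RPKM of 27.3 with BPA and 29.5 in the control, followed by Drosha at 19.8 with BPA and 26.4 in the control and by Ago2 at 14.6 with BPA and 14.1 in the control. Dgcr8, Ago1 and Tarbp2 were close to each other, between 6.52 and 8.42 with BPA and between 7.05 and 8.52 in the control. Ago1 and Tarbp2 with BPA, and Dgcr8 and Ago1 in the control, were neighbours whose counting intervals overlapped. Tarbp2 stood between Ago1 and Dicer1 with BPA and between Ago2 and Dgcr8 in the control. Dicer1 had 3.79 with BPA and 3.71 in the control, and Ago3 had 2.48 with BPA and 2.26 in the control. Dis3l2 had 1.74 with BPA and 1.26 in the control, and Ago4 was lowest, at 0.157 with BPA and 0.0223 in the control.

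The exon length used matters for this order: over the longest coding transcript, Tarbp2 had 19.5 with BPA and 25.4 in the control and stood next below Drosha in both libraries, and Dis3l2 stood above Ago3. That length was chosen after seeing the data. The Argonaute mix was nearly the same in both libraries. Ago2 made up 60.4% of the summed Argonaute level with BPA and 60.2% in the control, Ago1 28.7% with BPA and 30.1% in the control, and Ago3 10.3% with BPA and 9.63% in the control. Ago4 made up 0.649% with BPA and 0.0949% in the control.

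**Figure D3:**
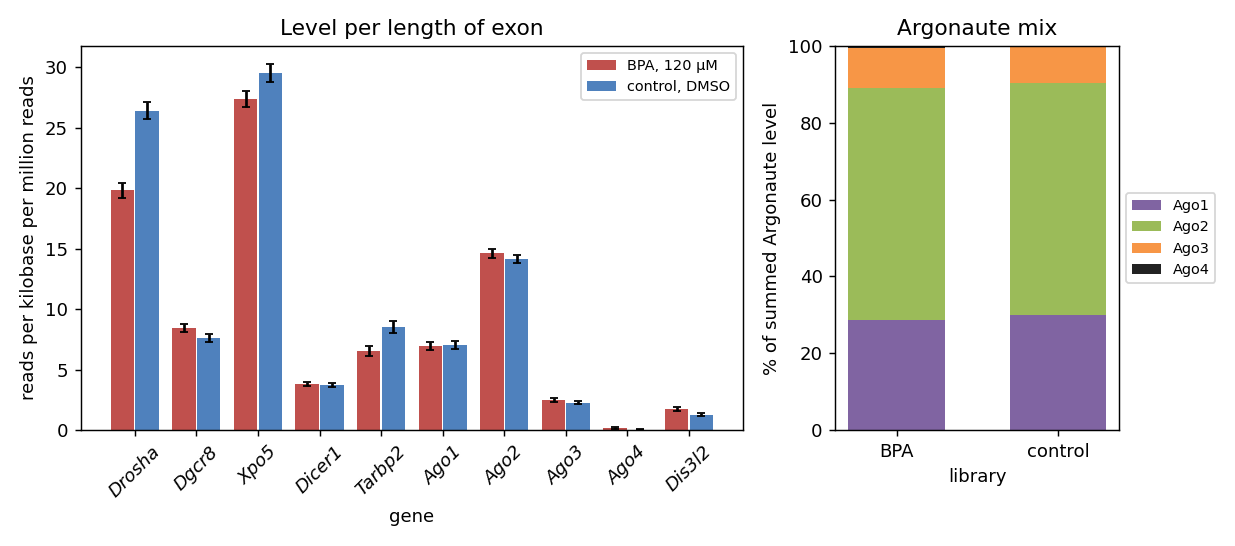
Left, level of each gene as RPKM in the BPA library (red) and the control library (blue), with 95% Poisson counting intervals as bars. Right, share of the summed Argonaute level held by each Argonaute gene in each library, with Ago2 at 60.4% with BPA and 60.2% in the control.

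The steps around these genes were described from 7 lists of 138 genes, of which 124 passed the filter. With BPA, 39 of the 124 were higher and 85 lower, with a median log2 ratio of -0.11, where 8749 of all 16870 genes were higher and 8121 lower. Scaled by the library total, 55 were higher and 69 lower, beside 10143 of all genes higher and 6727 lower. The differences were small: 1 gene of the lists was at least 2-fold higher and 3 were at least 2-fold lower. Among Microprocessor cofactors, 6 of 21 genes including Drosha and Dgcr8 were higher and 15 lower (median -0.15). The extremes were Hnrnpa1, which binds some hairpins, at -0.57, and Mettl14, of the complex that methylates adenosines in RNA, at 0.93 with 1447 reads with BPA and 702 in the control.

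All 7 genes of nuclear export were lower with BPA (median -0.18). They ran from -0.31 for Xpo1, the export receptor of many proteins and some RNAs, to -0.08 for Rcc1, which charges Ran with GTP. By library total all 7 still lay below 0 (median -0.10), but Rcc1 was nearly level, at -0.004. In dicing and loading, 4 of 17 genes were higher and 13 lower (median -0.12), or 8 and 9 by library total. Tarbp2 was the lowest of them, and Adar, which edits adenosines in double-stranded RNA, was the highest at 0.80, with 2922 reads with BPA and 1549 in the control.

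Of the Argonautes and their silencing partners, 10 of 28 genes were higher and 18 lower (median -0.10), between Ajuba, an Argonaute-binding LIM protein, at -0.47 and Ago4. Of deadenylation, decapping and decay genes, 8 of 23 were higher and 15 lower (median -0.04), but 14 were higher and 9 lower by library total. Dcps, which breaks down the cap left after mRNA decay, was more than 2-fold lower, at -1.11 (interval -1.27 to -0.95) with 495 reads with BPA and 990 in the control. The others ran from Cnot6l, a deadenylase, at -0.40 to Dcp1b, a decapping cofactor, at 0.86.

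Of genes for tailing, trimming and turnover, the step to which Dis3l2 belongs, 6 of 19 were higher and 13 lower (median -0.11), or 9 and 10 by library total. Zcchc6, a uridylyltransferase that tails let-7 precursors, was the highest at 0.44, with 2068 reads with BPA and 1407 in the control. Zcchc11 of the same list, named after its values were seen, was at -0.06 (interval -0.16 to 0.04). Lin28a and Lin28b, also on the list, were not among the genes in the mRNA data. Pnpt1, a 3′ exonuclease, was the lowest at -0.65. Of 20 genes for PIWI proteins, the germ cell branch of the Argonaute family, and their piRNAs, 9 passed the filter, with 5 higher and 4 lower (median 0.03). Both that were more than 2-fold lower were sparse. Gtsf1 had 13 reads with BPA and 34 in the control, and Tdrd12, named after its values were seen, had 5 with BPA and 11 in the control. Piwil2, a PIWI protein, had 13 with BPA and 7 in the control.

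**Figure D4:**
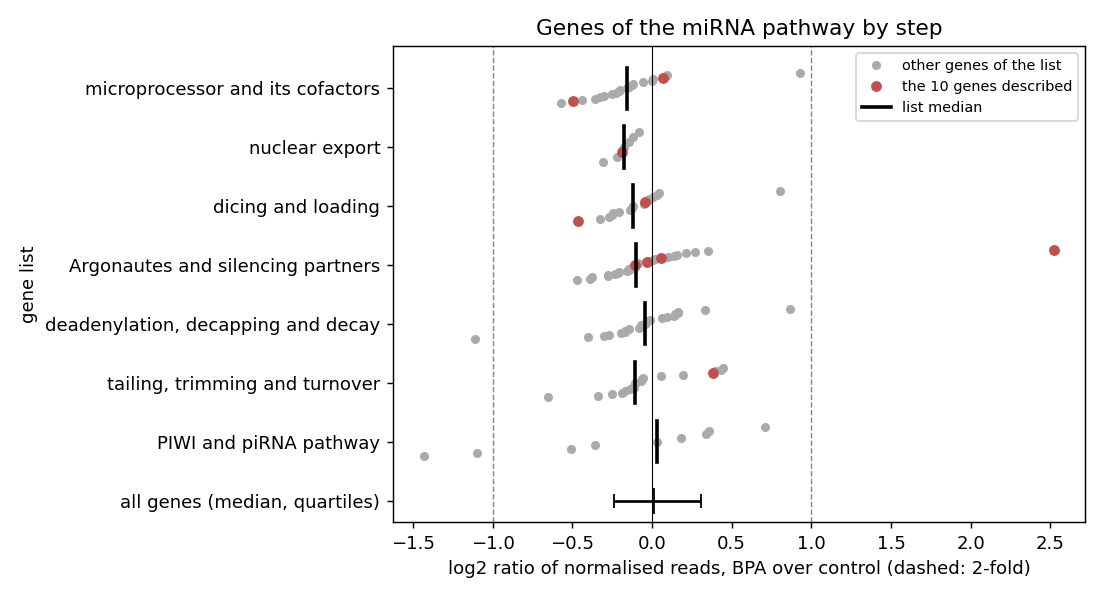
Log2 ratio of normalised reads, BPA over control, for each gene of 7 lists that passed the filter, with the 10 genes described in red, list medians as black bars and the median and quartiles of all genes in the lowest row. The nuclear export genes lie wholly below 0, and Ago4 stands alone at 2.52.

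circRNAs gave a further readout of the same genes from the same cultures. Of the 10 genes, 7 were hosts of 23 circRNAs, against 9158 circRNAs from 3953 host genes in all. None was listed for Dicer1, Tarbp2 and Ago4. Back-splice events of the hosts came to 20 of 17586 with BPA, or 0.114% (exact binomial interval 0.0695% to 0.176%). In the control they came to 19 of 12909, or 0.147% (0.0886% to 0.230%), so the shares could not be told apart at this depth.

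Xpo5 had more than any other of these hosts, with 7 events with BPA and 6 in the control. Drosha had 3 with BPA and 5 in the control, and Ago3 had 3 with BPA and 4 in the control. Dgcr8 had 3 with BPA and 0 in the control, where the floor of 3 counts is a share of 0.0232% and the exact binomial interval of a count of 0 reaches 0.0286%. Ago1, Ago2 and Dis3l2 had 1 or 2 events in each library. Events were too few for any direction to be read, also where a host's mRNA was lower, as for Drosha.

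The products of the pathway were read from the small RNA libraries, which held 3452574 reads with BPA and 3927981 in the control. A single miRNA, miR-148a-3p, took 35.2% of the reads with BPA and 70.5% in the control, and the scaling weighs heavily on the ratios. Scaled by trimmed means (TMM), the median log2 ratio of 464 miRNAs was 0.02, and scaled by the library total it was 1.70. Of the 464, 192 lay below 0 by TMM and above 0 by total. Ratios below use TMM unless stated, and 12.3% of miRNAs were then at least 2-fold higher with BPA and 15.7% at least 2-fold lower.

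The 10 let-7 family members with the seed printed above took 24.1% of all reads with BPA and 6.27% in the control. Leaving miR-148a-3p out of the totals, their share was 37.2% with BPA and 21.2% in the control. The log2 ratio of their summed reads was 0.26 by TMM and 1.94 by total. By TMM, 7 were higher with BPA and 3 lower, between -0.45 and 0.40, and none passed 2-fold. Of all 464 miRNAs, 236 were above 0 by TMM and 228 below. By total all 10 were at least 2-fold higher, as were 362 of the 464. let-7f-5p, the most abundant, had 355319 reads with BPA against 95596 in the control (0.40), and let-7i-5p had 273694 with BPA against 80598 in the control (0.27).

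let-7c-5p was at -0.12 by TMM and 1.56 by total, with 85752 reads with BPA and 32989 in the control, and let-7g-5p lay at 0.39, with 58586 with BPA and 15889 in the control. Among all 22 family names that passed the filter, passenger strands held the extremes. miR-98-3p was at 1.08 with 86 reads with BPA and 14 in the control, and let-7g-3p was at -2.04 with 6 with BPA and 9 in the control.

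miR-103-3p, whose seed match in the Dicer1 3′ UTR is printed above, had 3438 reads with BPA and 735 in the control. Its log2 ratio was 0.73 (interval 0.61 to 0.85) by TMM and 2.41 by total. miR-107-3p, with the same seed, had 185 with BPA and 46 in the control (0.50, interval 0.04 to 1.01). Both were higher with BPA under both scalings. The mRNA ratios of genes with a match in the 3′ UTR lay on both sides of 0. They were -0.46 for Tarbp2, -0.10 for Ago1, -0.05 for Dicer1 and -0.03 for Ago2. Ago3 was at 0.06, Dgcr8 at 0.07 and Ago4 at 2.52. The genes with no such match in the 3′ UTR also lay on both sides, with Drosha at -0.49, Xpo5 at -0.19 and Dis3l2 at 0.38. A part of these miRNAs in the mRNA ratios was not tested.

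miRNAs made without one of the usual enzymes were sparse to moderate. miR-451a, which needs Ago2 in place of Dicer1, had 32 reads with BPA and 9 in the control (0.28, interval -0.77 to 1.59). miR-320-3p and miR-484, which mature without Drosha, were at 0.24 with 1043 reads with BPA and 313 in the control, and at 0.12 with 1566 with BPA and 509 in the control. By TMM the summed let-7 reads were at 0.26, single members with the shared seed between -0.45 and 0.40, and miR-148a-3p at -2.68. The part of any enzyme in these values was not tested.

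Mirtrons, which are freed by splicing and not by Drosha, lay on both sides of 0 by TMM and all above 0 by total. So did most miRNAs: of all 464, 428 lay above 0 by total, while 236 lay above and 228 below by TMM. miR-1981-5p was at -0.90 (interval -1.15 to -0.64) by TMM and 0.78 by total, with 324 reads with BPA and 214 in the control. miR-877-5p was at -0.41 by TMM and 1.27 by total, with 45 with BPA and 21 in the control. miR-877-3p was at 1.48 by TMM and 3.16 by total, with 27 with BPA and 3 in the control, and its interval by TMM includes equality. miR-1224-5p and miR-702-3p had 1 read each with BPA and 0 in the control, too few for a ratio.

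3 mature miRNAs lie within the genes described. miR-1306-5p, from the Dgcr8 transcript (hairpin at chr16:18284239-18284317, − strand), had 18 reads with BPA and 15 in the control. Its log2 ratio was -1.24 by TMM and 0.44 by total, so its direction depends on the scaling. miR-1306-3p had 5 with BPA and 8 in the control, at -2.12 by TMM and -0.44 by total. miR-693-5p, from a hairpin within Xpo5, had 2 with BPA and 0 in the control.

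**Figure D5:**
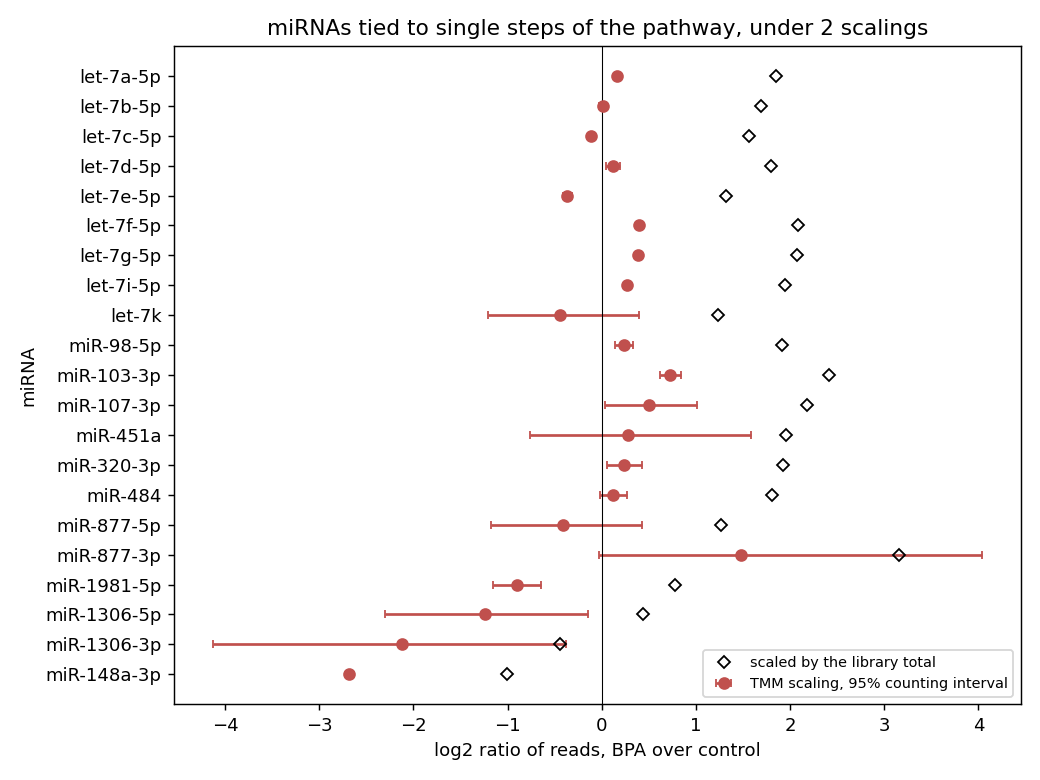
Log2 ratio of reads, BPA over control, for let-7 family members with the shared seed and the other miRNAs described (1 library per group), by TMM with 95% counting intervals (red) and by library total (open diamonds). The diamonds lie about 1.68 to the right of the red points, and 6 of the 21 miRNAs change side: let-7c-5p, let-7e-5p, let-7k, miR-877-5p, miR-1981-5p and miR-1306-5p.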

How the data were processed

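mRNA, small RNA and circRNA libraries of 1 BPA-treated and 1 control culture were analysed. Groups follow the titles. The submitters' processing notes name STAR, StringTie and Bowtie 1.1.0. mRNA and circRNA values were deposited as log2 of normalised reads plus 1 per the file headers and values. All mRNA values came back as whole reads (tolerance 0.001) at 0.962066 normalised reads per read with BPA and 1.03943 in the control. The deposited circRNA values are whole multiples of 2, each taken as 1 back-splice event. miRNA values are counts as deposited. The authors' deposited p-value and adjusted p-value are quoted as given, since no source used here says how they were made without replicates.

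Ratios are log2 of BPA over control, with 1 normalised read added (mRNA) or 0.5 reads (miRNA, TMM from edgeR 4.0.16). Counting intervals (95%) are exact conditional binomial, Clopper-Pearson, or Poisson, computed with SciPy 1.17.1. The interval of a change in the ratio of a pair of genes conditions on the reads in the same way. A floor is 3 counts. The filter was 10 reads in both libraries together, and counts use a fold of 2. With 1 library per group no count test could be fitted. The design had assumed counts for the mRNA and circRNA data. Interval and count steps were tested on simulated data. Positions, exon lengths and 3′ UTRs come from GENCODE M21 on GRCm38, and 3′ UTR background from protein-coding genes.

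The genes, lists and tests were chosen with earlier results of these data known. Named are all 10 genes, list genes past 2-fold with at least 50 reads, the highest and lowest others, listed miRNAs up to 12, and beyond that the 4 with most reads and both extremes. 2 libraries give no measure of likeness, so no gene is named for a like pattern. Alternatives were other scalings, added reads, filters, a fold of 1.5 and another gene length. Marker genes of Sertoli cells summed to 152 CPM with BPA and 131 in the control, Leydig cells to 70.5 with BPA and 55.7 in the control, leukocytes to 8.47 with BPA and 5.08 in the control, and epithelial cells to 3.66 with BPA and 8.36 in the control.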

Additional observations from a re-analysis of the deposited data

How the results depend on the processing

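No paired analysis was possible because each group had 1 library, and for the same reason none could be left out. For the ratios of the 10 mRNAs, TMM, the median of ratios and 0.5 or 5 added reads kept each value inside its counting interval, Ago4 with 5 added reads included (1.96). Scaling by the library total gave -0.41 for Drosha, -0.11 for Xpo5 and 0.046 for Ago2, which like Dicer1 (0.03) then lay above 0. By that scaling the interval of Ago1 included equality and those of Dgcr8 and Ago3 lay above it.

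A filter of 50 reads left 0 of the 10 genes at least 2-fold higher, since Ago4 falls below it. It left 0 genes of the lists higher and 1 lower, 440 of all genes higher and 277 lower, and 22 miRNAs higher and 30 lower, against 57 and 73 in the main counts. With no filter 2978 of all genes were higher and 2381 lower, against 1160 and 778. A fold of 1.5 gave 5 genes of the lists higher, and scaling by total gave 2. By total, 362 miRNAs were higher and 13 lower, and 6 of the 21 miRNAs plotted turned from below 0 to above it: miR-1306-5p to 0.44, miR-1981-5p to 0.78, let-7c-5p to 1.56, let-7e-5p to 1.32, let-7k to 1.24 and miR-877-5p to 1.27. By total without miR-148a-3p, miRNA ratios lay between the TMM and total values. Depth limits Ago4, the sparse miRNAs and the circRNAs.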

Other observations

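Both arms of a hairpin leave the same Dicer1 cut, and their read ratio within a library needs no scaling. Of 54 hairpins with at least 50 reads on each arm in both libraries together, 13 had a ratio at least 2-fold further toward the 5p arm with BPA, 8 further toward the 3p arm, and 33 lay within 2-fold. No counting interval was computed for these shifts, and some rested on few reads. miR-339, counted toward the 5p arm, had 19 reads of 5p and 15 of 3p in the control. The median log2 change was 0.05. The widest was miR-30e, whose 5p arm made up 33.6% of its reads with BPA (2560 of 5p and 5056 of 3p) and 5.19% in the control (506 of 5p and 9242 of 3p), a log2 change of 3.21. miR-30a, a relative, had 92.0% 5p reads with BPA and 64.9% in the control. At the other end, miR-10b had a log2 change of -1.98, with 41 reads of the rare 3p arm with BPA and 14 in the control.

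In 3 hairpins the arm with more reads was not the same in both libraries. For miR-221 the 5p arm held 48.8% of reads with BPA and 73.4% in the control, for miR-331 46.8% with BPA and 63.6% in the control, and for miR-199a 49.1% with BPA and 53.8% in the control. For miR-331 the counts were small, with 73 reads of 5p and 83 of 3p with BPA, and 35 of 5p and 20 of 3p in the control. These 3 hairpins were named after their values were seen, with 1 library per group and no test.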
